A study of Mus musculus with 6 samples.

Results

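In all, 10 smooth muscle contractile genes were followed in primary mouse uterine stromal cells with and without Pbrm1. They were Acta2, Actg2, Tagln, Myh11, Cnn1, Des, Lmod1, Mylk, Smtn and Myocd, taken from the count table by symbol. All 10 had a row of their own among the 54232 genes of the count table.

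RNA-Seq libraries were made from 3 control preparations, labelled WT, and 3 preparations labelled Pbrm1 cKO. The study's methods give the controls as floxed mice (Pbrm1 fl/fl), and the study describes the Pbrm1 cKO animals as Pbrm1 fl/fl carrying one PR-IRES-cre allele, so that every animal of both groups carried the floxed alleles. Cre is expressed from the progesterone receptor locus, which is active in uterine epithelium and muscle as well as in stroma. Females were 8 to 12 weeks old and were taken on day 4, which the labels give as pregnancy and the cell isolation protocol as pseudopregnancy. Each preparation drew on 5 to 10 uterine horns, and the digested, filtered cells were kept in culture for 4 h, given fresh medium and collected 2 h later. The study calls its 3 replicates biological, and no label says whether those of a group came from separate animals, so the p-values measure the spread between these samples. Pbrm1, which encodes the polybromo subunit of the PBAF chromatin remodelling complex, had normalized counts of 1354, 1385 and 1677 in the WT libraries and of 397, 459 and 451 in the Pbrm1 cKO libraries. The Pbrm1 counts of the groups did not overlap, and the log2 fold change was -1.76 (SE 0.13, adjusted p = 5.19e-40 by DESeq2).

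In smooth muscle cells, a rise in calcium activates myosin light chain kinase, the product of Mylk. The kinase phosphorylates the regulatory light chain of the myosin II motor, whose smooth muscle heavy chain is Myh11, and the motor then pulls on filaments of smooth muscle actin, Acta2 and Actg2. Tagln, Cnn1, Smtn and Lmod1 encode proteins that bind these actin filaments, and Des encodes the intermediate filament protein desmin. Transcription of many of these genes is driven by serum response factor, SRF, together with the coactivator myocardin, the product of Myocd, or its relatives MRTF-A and MRTF-B. In the uterus the full set is a hallmark of the myometrium and of vessel walls, while single members such as Acta2, Tagln and Des are also known from stromal cells, in culture and in early decidua.

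SRF binds the CArG box, a 10-base element that starts with CC, ends with GG and holds A or T between them, a pattern that is the same on both strands. The RefSeq promoter table (GRCm38.p6) held the 250 bases before the start site of 6 of the 10 genes, and those of the 4 genes with lower RNA in Pbrm1 cKO and of Lmod1 are shown, 5′ to 3′ on the coding strand, with every CArG box of at most 1 mismatch in capitals. They lie at chr19:34255374-34255623 on the minus strand (Acta2), and on the plus strand at chr16:34784700-34784949 (Mylk), chr9:22099003-22099252 (Cnn1), chr1:75360042-75360291 (Des) and chr1:135324563-135324812 (Lmod1).
Acta2: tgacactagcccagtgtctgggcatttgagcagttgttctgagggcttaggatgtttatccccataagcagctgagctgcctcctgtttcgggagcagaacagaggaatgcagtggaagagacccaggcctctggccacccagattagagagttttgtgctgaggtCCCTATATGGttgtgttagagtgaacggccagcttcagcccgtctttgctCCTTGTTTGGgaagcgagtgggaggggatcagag
Mylk: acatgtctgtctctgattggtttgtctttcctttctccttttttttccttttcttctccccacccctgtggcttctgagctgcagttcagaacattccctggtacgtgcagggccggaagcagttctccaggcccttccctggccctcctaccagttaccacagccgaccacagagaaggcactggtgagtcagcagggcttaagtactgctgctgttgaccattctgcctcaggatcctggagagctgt
Cnn1: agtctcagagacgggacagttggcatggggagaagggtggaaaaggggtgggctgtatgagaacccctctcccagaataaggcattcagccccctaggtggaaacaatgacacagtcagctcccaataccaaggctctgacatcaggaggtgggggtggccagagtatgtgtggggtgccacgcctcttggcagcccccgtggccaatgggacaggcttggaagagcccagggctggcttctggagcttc
Des: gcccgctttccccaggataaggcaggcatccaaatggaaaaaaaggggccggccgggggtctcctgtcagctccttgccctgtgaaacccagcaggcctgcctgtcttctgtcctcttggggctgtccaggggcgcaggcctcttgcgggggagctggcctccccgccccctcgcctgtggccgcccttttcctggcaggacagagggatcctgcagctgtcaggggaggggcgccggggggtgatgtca
Lmod1: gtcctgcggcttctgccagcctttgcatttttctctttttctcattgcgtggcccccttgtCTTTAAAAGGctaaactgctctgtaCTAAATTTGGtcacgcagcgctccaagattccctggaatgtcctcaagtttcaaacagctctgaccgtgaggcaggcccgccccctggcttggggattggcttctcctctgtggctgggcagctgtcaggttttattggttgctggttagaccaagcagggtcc
Acta2 held 2 boxes with 1 mismatch, starting at positions -84 and -34 from the RefSeq start site, and Lmod1 held 2, at -189 and -164. None of the 6 windows held a box without a mismatch, and those of Mylk, Cnn1, Des and Smtn held none with 1 mismatch. Over all 32851 promoters of the table, 1.47% held a box without a mismatch and 18.6% one with at most 1. Letters that are absent from these 250 bases may lie elsewhere, and the Mylk window lies within the long Mylk gene. A match is a string of letters and was not tested for binding.

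The actins are close relatives, so the share of each gene's sequence that is its own matters for its counts. The last 90 coding bases before the stop codon are shown for the smooth muscle actins and for Acta1, the skeletal muscle actin, with bases that differ from Acta2 in capitals.
Acta2: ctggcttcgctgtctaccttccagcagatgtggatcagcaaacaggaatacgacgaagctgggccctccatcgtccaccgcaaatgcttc
Actg2: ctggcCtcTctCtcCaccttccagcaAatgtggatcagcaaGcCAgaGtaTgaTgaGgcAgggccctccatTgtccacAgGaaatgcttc
Acta1: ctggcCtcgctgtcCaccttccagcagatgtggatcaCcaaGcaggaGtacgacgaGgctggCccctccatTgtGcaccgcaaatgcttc
Actg2 differed from Acta2 at 16 of the 90 bases and Acta1 at 9. Among all stretches of 50 bases in the GENCODE M21 transcripts of Acta2, 99.7% occurred in no other gene, and for Actg2 it was 100%. The share was 99.7% for Myh11 and 99.9% for Mylk, whereas the cytoplasmic actin Actg1, with a share of 62.6%, is close to many processed copies. The contractile genes can therefore largely be counted apart from each other and from their relatives, and counts of Actg1 are less certain.

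The level of each gene is given first, as normalized counts per kilobase of the gene length in the table. In the WT cells the order from the highest was Tagln with 15300 ± 1170, Des with 6110 ± 1240, Acta2 with 1660 ± 169, Smtn with 275 ± 35.8 and Mylk with 142 ± 23.7 (SD, n = 3). Below them came Actg2 with 28.2 ± 3.99, Lmod1 with 17.1 ± 2.88, Myh11 with 10.8 ± 5.37, Cnn1 with 10.5 ± 2.05 and Myocd with 0.284 ± 0.203 normalized counts per kilobase. The genes held the same order in the Pbrm1 cKO cells. Neighbours in this order did not overlap between their libraries, except Lmod1 with Myh11 and Myh11 with Cnn1 in WT and Actg2 with Lmod1 in Pbrm1 cKO. Tagln and Des made up 90.9% of the summed WT level per kilobase. The genes that define differentiated smooth muscle most narrowly, Myh11, Cnn1 and Myocd, were the lowest of the 10. The labelled cell type is stromal, and all 13 genes of the stromal marker list had counts. Among them Hoxa10 and Pdgfra were present in every library, Pdgfra at 13916 to 17884 normalized counts. Pgr, at 6041 to 8976, and Esr1 were present as well, but neither is confined to stroma in the uterus. The presence of Pgr does not tell stroma from muscle.

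**Figure D1:**
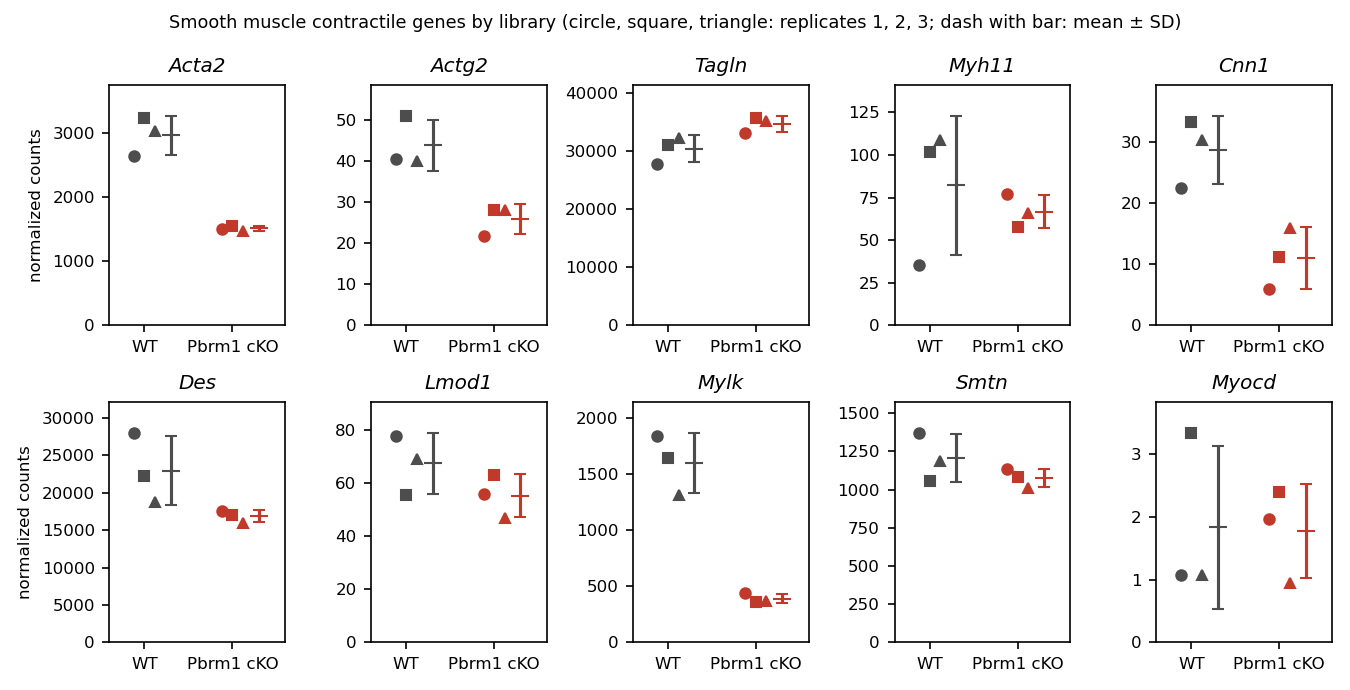
Normalized counts (vertical axes, each from 0) of the 10 contractile genes in the 3 WT libraries (grey) and the 3 Pbrm1 cKO libraries (red); symbols mark the replicates, and the dash with a bar is the mean ± SD. Acta2 and Mylk lie far lower in every Pbrm1 cKO library, Tagln lies somewhat higher, and Myh11 in WT replicate 1 lies apart from the other WT libraries.

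The comparison of Pbrm1 cKO with WT asked whether these genes changed when Pbrm1 was deleted. Of the 9 genes tested, 4 were lower in Pbrm1 cKO at an adjusted p of 0.05 (Mylk, Cnn1, Acta2 and Des), 0 were higher and 5 did not pass. Among all 17474 genes tested, 15.2% were lower, 15.9% were higher and 31.1% were called in either direction by the same rule. The edgeR fit called 5 of these genes lower and 0 higher, against 20.6% and 20.8% of all genes it tested, and the limma fit gave the same 5 and 0, against 20.4% and 21.7%; Actg2 was the gene added in both. The median log2 fold change was -0.44 over the 9 genes and -0.00 over all genes tested. At an unadjusted p under 0.05 by DESeq2, 5 of the 9 were lower and 1, Tagln, was higher, where 19.2% of all genes tested were lower and 19.6% higher. The groups did not overlap for 6 of the 9 genes, against 48.6% of all genes tested. In bulk RNA a smaller number of cells of one type and less RNA per cell cannot be told apart, and this holds for each value here.

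Mylk, the myosin light chain kinase gene (chromosome 16, 34745210 to 35002420, plus strand, GRCm38), fell the most. Its normalized counts were 1841, 1640 and 1312 in WT and 436, 363 and 371 in Pbrm1 cKO. Every Pbrm1 cKO library was far below the lowest WT library. The mean fell to 24.4% of that in WT (log2 fold change -2.04, 95% interval -2.33 to -1.74, adjusted p = 8.79e-40). The row pools all transcripts of the locus, which encodes a long kinase, a short kinase and the kinase-free protein telokin, so the fall cannot be assigned to one of them. Its call and direction held in all 15 alternative settings, with a log2 fold change from -2.20 to -1.92.

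Myh11, the smooth muscle myosin heavy chain gene (chromosome 16, 14194535 to 14291372, minus strand), had normalized counts of 35.3, 102 and 109 in WT and 77.0, 57.5 and 65.7 in Pbrm1 cKO. WT replicate 1 was lower than every other library, whereas the other WT libraries were above all Pbrm1 cKO libraries. The log2 fold change was -0.30 (95% interval -1.04 to 0.44) and did not pass the test (adjusted p = 0.613). Without WT replicate 1 it was -0.67 and passed (adjusted p = 0.0403), whereas without WT replicate 2 it was -0.12 (adjusted p = 0.896) and without WT replicate 3 it was -0.04 (adjusted p = 0.957), so the estimate for Myh11 rests on which WT libraries are included.

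Acta2, the smooth muscle alpha-actin gene (chromosome 19, 34241090 to 34255336, minus strand), had normalized counts of 2629, 3223 and 3020 in WT. In Pbrm1 cKO the counts were 1503, 1546 and 1473, within a narrow band and below every WT library. Acta2 fell to 51.0% of its WT mean (log2 fold change -0.97, 95% interval -1.18 to -0.77, adjusted p = 1.59e-18), and passed in each of the 15 alternative settings. Actg2, the smooth muscle gamma-actin gene of visceral muscle (chromosome 6, 83512905 to 83536265, minus strand), was far less abundant. Its normalized counts of 40.6, 51.1 and 40.0 in WT and 21.7, 28.0 and 28.1 in Pbrm1 cKO did not overlap. The log2 fold change of Actg2 was -0.75 (95% interval -1.44 to -0.07) and missed the threshold with DESeq2 (adjusted p = 0.0866). Actg2 passed with edgeR's quasi-likelihood test (adjusted p = 0.0226) and with limma voom (adjusted p = 0.0318).

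The 4 actin-binding genes did not move together. Tagln encodes transgelin, also called SM22-alpha, and was the most abundant of the 10 genes (chromosome 9, 45929619 to 45936058, minus strand). Its normalized counts were 27726, 31040 and 32192 in WT and 33079, 35671 and 35158 in Pbrm1 cKO. All Pbrm1 cKO libraries were above all WT libraries by a small margin. The log2 fold change of 0.19 (95% interval 0.01 to 0.37) missed the threshold (adjusted p = 0.0953), and it passed without WT replicate 3 (0.23, adjusted p = 0.0182) and after a trend with gene length was removed (0.27, adjusted p = 0.00592). Tagln was the one gene of the 9 tested with a positive fold change, and it stayed positive in all 15 settings.

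Cnn1, the gene of smooth muscle calponin (chromosome 9, 22099216 to 22109630, plus strand), was detected at low depth. Its normalized counts were 22.4, 33.3 and 30.3 in WT and 5.92, 11.2 and 16.0 in Pbrm1 cKO, from raw counts of 6 to 30. The groups did not overlap, and Cnn1 fell to 38.4% of the WT mean (log2 fold change -1.37, 95% interval -2.36 to -0.39, adjusted p = 0.0234). The direction held in all 15 settings, but the call was lost without WT replicate 2 (adjusted p = 0.135), WT replicate 3 (0.0912), Pbrm1 cKO replicate 1 (0.145) or Pbrm1 cKO replicate 2 (0.0985).

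Smtn and Lmod1 did not pass the test. Smtn, the smoothelin gene (chromosome 11, 3517523 to 3540612, minus strand), had normalized counts of 1369, 1058 and 1184 in WT and 1134, 1079 and 1011 in Pbrm1 cKO. These ranges overlapped, with a log2 fold change of -0.16 (95% interval -0.41 to 0.08, adjusted p = 0.349). Lmod1, which encodes leiomodin 1, a nucleator of actin filaments (chromosome 1, 135324807 to 135368065, plus strand), had 78.0, 55.5 and 69.2 in WT and 56.2, 63.1 and 46.9 in Pbrm1 cKO. The Lmod1 ranges overlapped as well, with a log2 fold change of -0.28 (95% interval -0.83 to 0.26, adjusted p = 0.500).

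Des, the desmin gene (chromosome 1, 75360329 to 75368579, plus strand), had normalized counts of 27937, 22165 and 18743 in WT. Its counts in Pbrm1 cKO were 17566, 17070 and 15998, all below the lowest WT library though close to it. Des fell to 73.5% of its WT mean (log2 fold change -0.44, 95% interval -0.72 to -0.17, adjusted p = 0.00689). The fall was lost as a call without Pbrm1 cKO replicate 3 (-0.40, adjusted p = 0.0703). Without WT replicate 1 the estimate was -0.28 and still passed (adjusted p = 0.01). The fall is smaller than the 1.5-fold limit that the study used to mark changed genes in a plot.

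Myocd, the gene of the coactivator myocardin (chromosome 11, 65176561 to 65269989, minus strand), had raw counts of 1, 3 and 1 in WT and 2, 3 and 1 in Pbrm1 cKO. All of these are at or under 3 counts, so no fold change is given, and these counts are too few to show a difference. Myocd is the gene of the 10 that the fit did not test, since its mean count was too low. In this bulk RNA, the level of Myocd within the cells that hold the contractile RNA cannot be told.

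**Figure D2:**
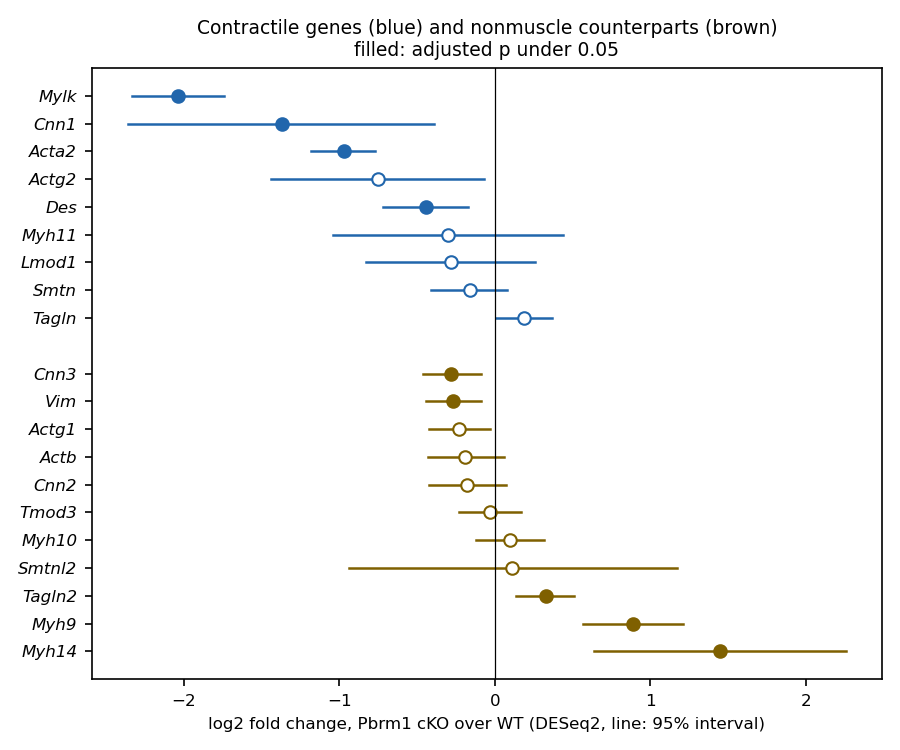
Log2 fold change of Pbrm1 cKO over WT (horizontal axis, DESeq2; lines are 95% intervals) for the 9 contractile genes tested (blue) and their 11 nonmuscle counterparts (brown), filled where the adjusted p is under 0.05. Mylk at -2.04 and Cnn1 at -1.37 lie at one end and Tagln at 0.19 at the other, while the nonmuscle genes run from -0.28 to 1.45.

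Each contractile protein has relatives that are used in most cells, and 11 of their genes were read beside the 10. Of these 11 genes, 3 were higher and 2 were lower in Pbrm1 cKO, with a median log2 fold change of -0.03. By the same rule, 31.1% of all genes tested were called in either direction. Myh9, a heavy chain of nonmuscle myosin II, had 22426, 19505 and 31984 normalized counts in WT against 48129, 46042 and 43000 in Pbrm1 cKO. It rose by a log2 fold change of 0.89 (95% interval 0.57 to 1.21, adjusted p = 5.20e-07), where Myh11 did not pass. Myh14, another nonmuscle heavy chain at 10.7 to 48.3 normalized counts, rose by 1.45 (adjusted p = 0.00237), and Myh10, the third, was at 0.10 (adjusted p = 0.573). Tagln2, the relative of Tagln, rose by 0.33 (adjusted p = 0.00307). Cnn3, the acidic calponin, fell by 0.28 (adjusted p = 0.0125), and Vim, the vimentin gene and relative of Des, fell by 0.27 (adjusted p = 0.0124). The cytoplasmic actins did not pass: Actb was at -0.19 (adjusted p = 0.285), and Actg1, whose counts are uncertain, at -0.23 (adjusted p = 0.0631). Cnn2, Tmod3 and Smtnl2 were at -0.18, -0.03 and 0.11 on the same log2 scale and did not pass either. The difference in fold change between a contractile gene and its relative was not tested.

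Of the 10 regulators of SRF-dependent transcription tested, 2 passed, both lower, with a median log2 fold change of 0.12. Across all genes tested, 15.2% were lower and 15.9% higher. Srf itself had normalized counts of 3303, 2416 and 2245 in WT and 2989, 3009 and 2781 in Pbrm1 cKO, with a log2 fold change of 0.14 (adjusted p = 0.526). Mrtfa was at 0.10 (adjusted p = 0.577) and Mrtfb at 0.26 (adjusted p = 0.199). These MRTF coactivator genes were present at 339 to 633 normalized counts and did not pass, whereas Myocd was too low to be read. The regulators that passed were Foxo4 and Csrp2. Foxo4, a forkhead factor known to hold back myocardin, fell by 0.64 (adjusted p = 0.00170), and Csrp2, a LIM protein that works with SRF and GATA factors, fell by 0.52 (adjusted p = 1.80e-05). The rest lay between 0.04 for Fhl2 and 0.76 for Gata6, with Elk1 at 0.06, Tgfb1i1 at 0.24 and Klf4 at 0.38 (adjusted p = 0.0534). Without WT replicate 1, 3 of the 10 regulators were higher and 2 lower, where 17.7% of all genes tested were higher and 16.5% lower.

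Other parts of the contractile apparatus gave more calls in the lower direction. Of 20 further genes of filaments, light chains and adhesion plaques, 8 were lower and 3 higher, with a median log2 fold change of -0.27. The shares over all genes tested were 15.2% lower and 15.9% higher. Myl9, the regulatory light chain that the Mylk product phosphorylates, had 3581, 3362 and 2832 normalized counts in WT against 1306, 1205 and 1176 in Pbrm1 cKO. Myl9 fell by 1.41 on the log2 scale (adjusted p = 8.28e-32), so the kinase and its substrate were lower in every Pbrm1 cKO library. Myl6, the essential light chain, fell by 0.76 (adjusted p = 4.16e-21). Pgm5, an adhesion plaque protein also called aciculin, rose by 1.53 (adjusted p = 5.52e-21).

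Among 12 genes of the signals that switch contraction on and off, 2 were higher and 2 lower. Over all genes tested, 15.9% were higher and 15.2% lower, and these shares belong beside each count of this paragraph. Ppp1r12b, a targeting subunit of myosin phosphatase, rose by 0.62 (adjusted p = 3.21e-05), and Arhgef1, an activator of RhoA, rose by 0.79 (adjusted p = 0.000514). Of 16 genes of myometrial excitation, 11 were tested and 4 passed, all lower. Kcnmb1, the smooth muscle subunit of the large-conductance potassium channel, had normalized counts of 47.0, 49.9 and 59.5 in WT and 2.96, 4.00 and 6.57 in Pbrm1 cKO. This is a fall of 3.53 on the log2 scale (adjusted p = 1.25e-10), a larger estimate than that of Mylk, from low counts. Oxtr, the oxytocin receptor gene, fell by 0.58 (adjusted p = 9.75e-06) and Ptger3, a prostaglandin E2 receptor gene, by 1.63 (adjusted p = 0.0155). Of 7 targets that MRTF and YAP share, 2 were higher and 2 lower: Ankrd1 fell by 2.15 (adjusted p = 1.37e-23), Amotl2 fell by 0.52 (adjusted p = 0.00238), and Itga5 rose by 1.00 (adjusted p = 1.29e-07).

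**Figure D3:**
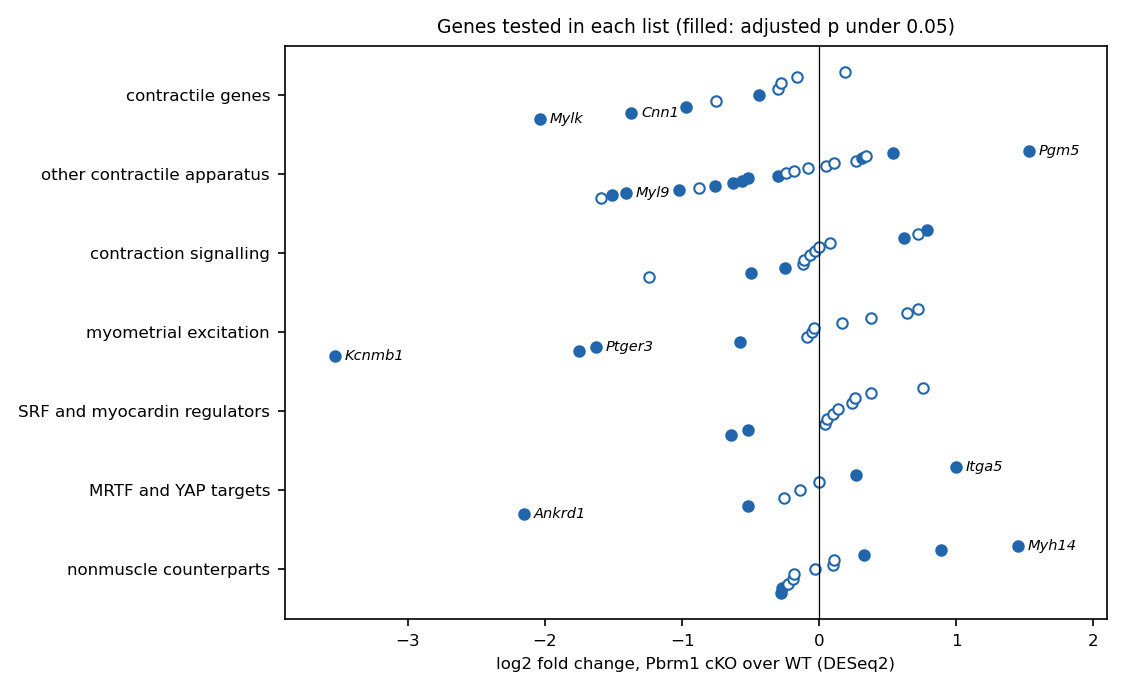
Log2 fold change of Pbrm1 cKO over WT (horizontal axis, DESeq2) for every tested gene of 7 lists (rows), 1 point a gene, filled where the adjusted p is under 0.05 and named where a gene described in the text changed by at least 1. The 4 called contractile genes and the 4 called myometrial excitation genes all lie left of 0, and the other lists have called genes on both sides or, for the SRF regulators, 2 on the left.

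Uterine preparations can carry vessel walls, which also hold Acta2, Myh11, Cnn1 and Des, and markers of other cells were read beside the contractile genes. Of 9 pericyte markers, 1 was higher and 2 were lower, and of 12 endothelial markers, 1 was higher and 4 were lower. In the same fit 15.9% of all genes tested were higher and 15.2% lower. The summed endothelial level was 3406, 6875 and 6923 normalized counts in WT against 3318, 3579 and 3012 in Pbrm1 cKO. The summed pericyte level was 9563 to 10421 in WT and 10525 to 11695 in Pbrm1 cKO, and it is carried by Pdgfrb and Cspg4. The median log2 fold change of the pericyte list was -0.84, and its other markers had fold changes from -1.50 to -0.42, of which those of Kcnj8 and Ndufa4l2 passed. WT replicate 1 was the lowest WT library for 11 of the 12 endothelial and 7 of the 9 pericyte markers, as it was for Myh11. WT replicate 1 was also the lowest or tied lowest for 14 of 14 leukocyte markers, with a sum of 4136 against 8962 and 8668 normalized counts in the other WT libraries. Of these markers, Cd79a and Nkg7 were at 0 in both WT replicates 1 and 3, and Cd3e had 1 raw count in both. For 12 of 14 epithelial markers WT replicate 1 was the lowest, with a sum of 1894 against 3418 and 3202. Without WT replicate 1, the lower calls were 10 of 12 endothelial markers, 6 of 9 pericyte markers and 5 of 9 contractile genes, Myh11 being the one added, against 16.5% of all genes tested; this leave-out of the marker lists was chosen after seeing the data. The part that vessel cells have in these differences was not tested.

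Single vascular genes showed different patterns across the libraries. Kcnj8, a pericyte potassium channel gene, had 12.8, 53.3 and 59.5 normalized counts in WT against 15.8, 14.4 and 14.1 in Pbrm1 cKO. Egfl7, an endothelial secreted protein, had 121, 549 and 446 in WT and 87.8, 119 and 109 in Pbrm1 cKO. In both, WT replicate 1 lay close to the Pbrm1 cKO libraries, whereas Acta2 in that library, at 2629, lay near the other WT values. Among the 10 contractile genes, WT replicate 1 was the lowest WT library for Acta2, Tagln, Myh11 and Cnn1, while Mylk, at 1841, and Des, at 27937, were highest there. Myocd had 1 raw count in both WT replicates 1 and 3. Cdh5, the endothelial cadherin, had 774, 713 and 677 in WT and 190, 192 and 201 in Pbrm1 cKO, and did not set WT replicate 1 apart. The other called markers of these lists were Ndufa4l2 (-1.39) and Cspg4 (0.37) of pericytes and Emcn (-2.02), Flt1 (-0.61) and Vwf (1.90) of endothelium, as log2 fold changes.

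**Figure D4:**
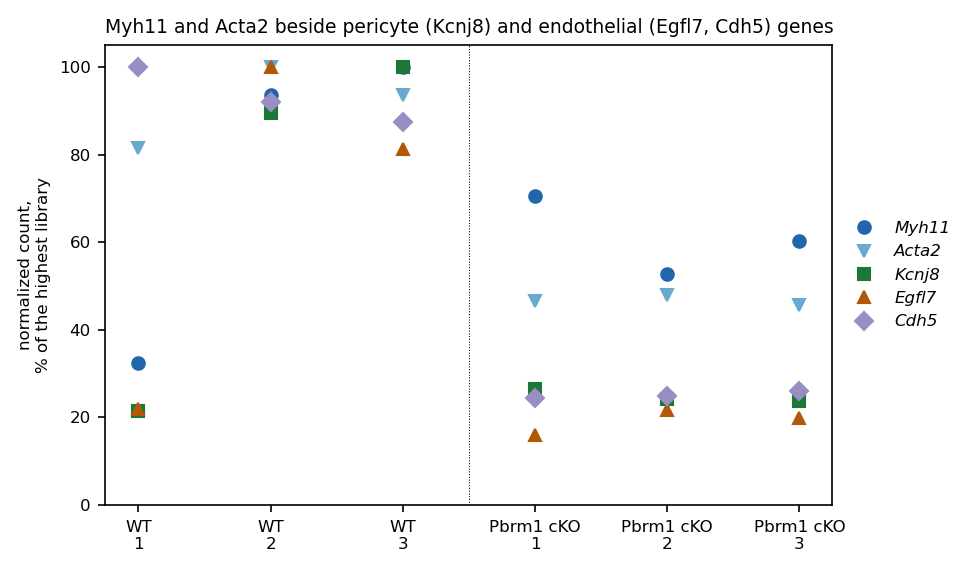
Normalized counts in each of the 6 libraries (horizontal axis) as a percent of the highest library for that gene (vertical axis, from 0), for Myh11, Acta2, the pericyte gene Kcnj8 and the endothelial genes Egfl7 and Cdh5. Myh11, Kcnj8 and Egfl7 are low in WT replicate 1, while Acta2 and Cdh5 are high in all WT libraries.

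Markers of leukocytes, epithelium and striated muscle that passed with all libraries were higher in Pbrm1 cKO, and most stromal markers that passed were lower. Of all genes tested, 15.9% were higher and 15.2% lower with all libraries. Of 12 leukocyte markers tested, 11 passed, and the list's summed level was 4136 to 8962 normalized counts in WT against 37018 to 38589 in Pbrm1 cKO, with Cd74 (log2 fold change 3.05), Csf1r (2.59) and Cd68 (2.28) having the lowest adjusted p. Of 13 epithelial markers tested, 5 passed, and without WT replicate 1 the calls were 4 higher and 1 lower. With all libraries they were led by Ltf (2.84), Krt19 (1.38) and Cdh1 (1.14), with sums of 1894 to 3418 in WT and 3761 to 3933 in Pbrm1 cKO. Of 13 stromal markers, 1 was higher and 7 lower, led by Col3a1 (-2.17), Hand2 (-1.0) and Thy1 (-1.21), and their sum was 74862 to 87968 in WT and 53936 to 57805 in Pbrm1 cKO. The stromal and the contractile calls were thus mostly in one direction and the leukocyte calls in the other, and the part that these shifts have in the contractile genes was not tested. Of 15 striated muscle markers, 6 were at 0 in all libraries (Ckm, Myh4, Myh6, Myh7, Myod1 and Myog), 5 were tested and 2 passed. The higher genes were Mylk2, the skeletal muscle light chain kinase and a relative of Mylk, at 1.55 (adjusted p = 7.57e-49), and the skeletal actin Acta1, at 1.34 (adjusted p = 0.0198). Acta1 had 24.6, 12.2 and 11.9 normalized counts in WT against 29.6, 32.8 and 61.0 in Pbrm1 cKO, a low level with the highest value in Pbrm1 cKO replicate 3. Mylk2 had 619, 537 and 579 normalized counts in WT against 1656, 1678 and 1752 in Pbrm1 cKO, so every Pbrm1 cKO library lay above every WT library, where for Mylk every one lay below.

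Outside the 10, the genes most like Acta2 over the 6 libraries were Hsd11b1 (Pearson r = 0.9998), Arcn1 (0.9997), Zfp850 (0.9997), Magt1 (0.999) and Col4a5 (0.9987), on log2 normalized counts. Their log2 fold changes ran from -2.86 for Hsd11b1 to -0.28 for Arcn1, beside -0.97 for Acta2. With 3 libraries on either side of a large difference and shared size factors, 98 of the 9582 genes compared had an r above 0.99.

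**Figure D5:**
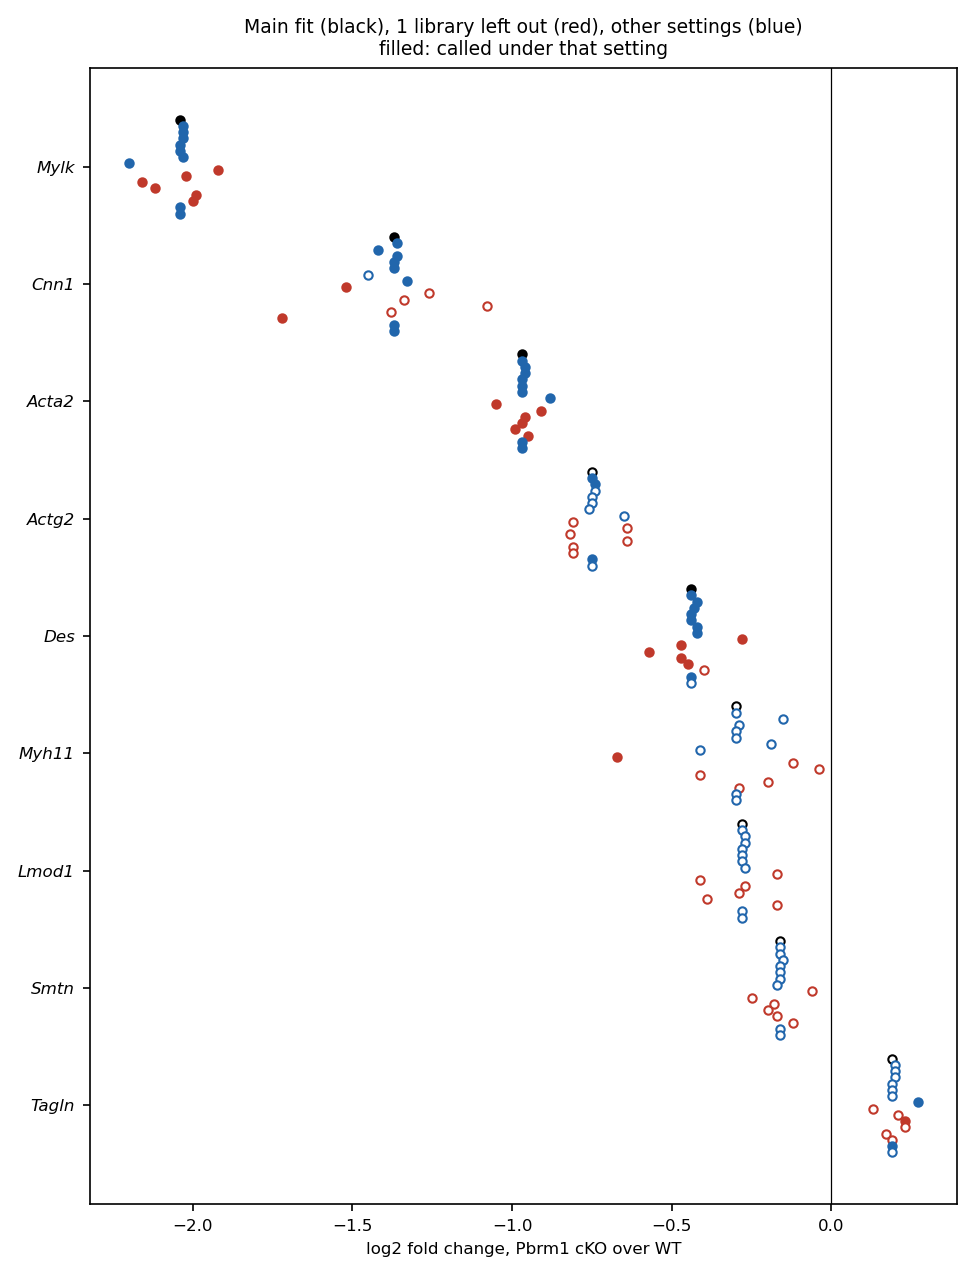
Log2 fold change of Pbrm1 cKO over WT (horizontal axis) of the 9 contractile genes tested in the fit reported here (black), with 1 library left out (red) and under the other settings (blue), filled where that setting called the gene. No gene crosses 0, Mylk and Acta2 are filled throughout, and Cnn1, Des, Actg2, Tagln and Myh11 are filled in some settings.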

How the data were processed

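RNA-Seq was made from 3 WT and 3 Pbrm1 cKO libraries. Per the file headers and the study's methods, the authors trimmed reads with cutadapt, mapped them with HISAT2 to GRCm38 and counted them by gene of GENCODE M18 with featureCounts 1.6.4, reverse-stranded. The deposited values were raw counts per gene, with gene lengths; totals ran from 13253575 to 18338667 per library. The labels describe a total RNA kit with transcript depletion and the study's methods mRNA purification. DESeq2 1.42.0 (R 4.3.3) was fitted to all 6 libraries without covariates, with median-of-ratios size factors, independent filtering, Wald tests and Benjamini-Hochberg adjustment over all genes tested, and a gene was called at an adjusted p under 0.05. Fold changes were not shrunken, and intervals are 95% Wald intervals. Alternatives used edgeR 4.0.16, limma 3.58.1, other size factors, filters and thresholds, a replicate block, removal of a trend with gene length, and 1 library left out. The fits were also run on simulated counts with the same spread for every gene and with changes set only in genes of higher counts. That run therefore does not cover genes of low counts such as Cnn1 and Actg2. IDs were matched to symbols for 54079 of 54232 genes. The genes and lists were chosen with earlier results of these data known. Named genes were the 10 contractile genes, Pbrm1, all nonmuscle counterparts and SRF regulators, up to 3 called genes with the lowest adjusted p of each other list, and the 5 genes of mean normalized count of at least 100 most correlated with Acta2; single genes beyond that rule were chosen after their values were seen. A gene that the rule names is not reported here. With 3 samples a group, no group was searched for outlying samples.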

Additional observations from a re-analysis of the deposited data

How the results depend on the processing

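Over 15 alternatives for each of 9 contractile genes, 135 values in all, 121 kept their call, 7 lost it, 7 gained one and 0 changed sign. Settings that changed only the threshold or the filter left the fold changes as they were, so the sign could not change there. The number of genes lower in Pbrm1 cKO was 4, against 15.2% of all genes tested. With 1 library left out it was from 3 to 5, where 11.2% to 16.5% of all genes tested were lower. The number higher was 0, against 15.9% of all genes tested. It was 1, Tagln, at an adjusted p of 0.1, where 18.6% of all genes were higher, and with the length trend removed, where 14.2% were. It was from 0 to 1 with 1 library left out, against 12% to 17.7% of all genes tested. The log2 fold change of Mylk ranged from -2.20 to -1.92 and that of Acta2 from -1.05 to -0.88, each called throughout, while Des ranged from -0.57 to -0.28 (the smallest without WT replicate 1) and Cnn1 from -1.72 to -1.08. Replicate numbers did not pair the libraries, since the deviations of same-numbered libraries from their group means correlated at 0.0401, -0.0388 and -0.000927. With the replicate block 3 genes were lower, against 11.5% of all genes tested, and Cnn1 dropped out (adjusted p = 0.0917). That fit called 3972 genes in all, against 5432. Where a call was lost, the cause was not tested. Myocd, at 3 counts or fewer in every library, could not be read.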
